A study of Mus musculus with 6 samples.

Results

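The genes described here are the Igf2bp readers of mRNA (Igf2bp1, Igf2bp2 and Igf2bp3), 4 partners that stabilise or bind mRNA (Elavl1, Matr3, Pabpc1 and Pabpc4), and Malsu1, whose last exon runs tail to tail into that of Igf2bp3. They were taken by gene symbol from a table of 52249 mouse genes, in which each of the 8 symbols occurs in 1 row. Of the 8, 7 had enough counts for a test and 1, Igf2bp3, did not. The counts come from 6 libraries of mouse intestinal organoids, which are self-organising epithelial cultures. Apc, a tumour suppressor and brake on WNT signalling, was knocked out in every one of them. The control group (Apc-knockout) has 3 libraries, and the other group (Apc-knockout, IGF2BP3 overexpression) has 3 libraries, called OE-labelled here because Igf2bp3 counts gave no check of that label. The labels name no strain, age, vector, promoter, clone or source animal, nor the species or sequence of the IGF2BP3 named in the OE label, and Apc-intact libraries were not analysed here. The labels give replicate numbers but do not say that replicates were separate cultures, so p-values measure only the spread between these libraries, which may be technical.

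IGF2BP proteins bind mRNAs in the cytoplasm, many of them carrying the m6A mark, and keep them from decay. They are made mostly in the embryo, where the let-7 microRNAs later lower their mRNAs, and they are made again in many tumours, colorectal tumours among them. ELAVL1 (HuR), MATR3 (matrin 3) and PABPC1 are proteins reported to act with IGF2BP readers on bound mRNAs. PABPC1 and PABPC4 coat the poly(A) tail.

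Sequencing was from the 3′ end of polyadenylated RNA, so long transcripts gain no extra counts. Totals ran from 2180116 to 2228078 counts in control and from 2310236 to 2519917 in OE-labelled libraries. The library names form one series for controls and another for OE-labelled libraries, so library series and group cannot be told apart. The mitochondrial ribosomal RNAs took 8.93% to 9.41% of the counts in control and 3.89% to 4.36% in OE-labelled libraries, and the biological coefficient of variation was 3.14% and 17.2%. Across 10268 protein-coding genes the log2 fold change followed GC content (Spearman rho 0.37, genes not being independent replicates). Of 10 intestinal epithelial markers 8 passed the count filter, with Epcam at 432 CPM (controls) and 455 CPM (OE label), while Krt20 and Cdx1 were at 0 counts in every library. The summed level of the 8 fibroblast markers was at most 1.41 CPM and that of the 3 endothelial markers at most 0.461 CPM. Of 6 immune markers, Csf1r was at 30.6 CPM and 49.2 CPM (edgeR adjusted p = 0.0061) and Cd68 at 15.6 CPM and 17.6 CPM, with Cd3e at 0 counts. Of the 8 tested epithelial markers edgeR called 4 higher (Krt8, Krt18, Krt19 and Vil1) and 1 lower (Cldn7), against 29.2% of all tested genes called. Epcam, Cdh1 and Cdx2 were not called (log2 fold changes 0.08, -0.12 and 0.37). The sum of the markers ran from 4152 to 4390 CPM in controls against 5403 to 6127 CPM under the OE label. Krt18 alone was at 1179 CPM in controls and 2229 CPM under the OE label. In bulk RNA, fewer cells of a type and less RNA per cell cannot be told apart. The part that library series, RNA composition or GC content had in the differences below was not tested, except where a value is given.

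The 3 readers share a sequence feature in their annotated transcripts, the let-7 seed match CTACCTC, which is shown because let-7 is the textbook regulator of this family. The mature microRNA (RefSeq, GRCm38.p6) is given with its seed, bases 2 to 8, in capitals, and below it are the matches in the 3′ untranslated regions of the readers, in mm10 (GRCm38), with the bases that pair to the seed in capitals.
mmu-let-7a-5p: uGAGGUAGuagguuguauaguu
Igf2bp1 site 1, minus strand, chr11:95961778-95961799: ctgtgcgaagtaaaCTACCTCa
Igf2bp1 site 2, minus strand, chr11:95959357-95959378: agcagtgctattaaCTACCTCa
Igf2bp1 site 3, minus strand, chr11:95958763-95958784: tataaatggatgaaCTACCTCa
Igf2bp1 site 4, minus strand, chr11:95958140-95958161: cttttggttttaatCTACCTCt
Igf2bp2 site 1, minus strand, chr16:22059473-22059494: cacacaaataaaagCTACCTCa
Igf2bp3 site 1, minus strand, chr6:49086787-49086808: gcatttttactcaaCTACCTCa

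Igf2bp1 held 4 matches in an untranslated region of 6337 bases, Igf2bp2 held 1 in 1784 bases and Igf2bp3 held 1 in 2119 bases. Malsu1 also held 1 match, and Elavl1, Matr3, Pabpc1 and Pabpc4 held 0. A match was found in 1854 of 20942 protein-coding genes (8.85%), counted over 3′ untranslated regions of any length, so genes with long regions had more room for one. A match describes the letters only, and mature let-7 was not measured by these libraries.

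Counts are given below per library in replicate order, then as CPM, the usual depth-scaled unit, with library sizes scaled by TMM (trimmed mean of M-values). A gene was called when its adjusted p in edgeR's quasi-likelihood test was below 0.05. Over all 10687 tested genes 29.2% were called, 16.5% higher and 12.7% lower in OE-labelled libraries. Of the 7 tested members, 4 were called lower (Igf2bp1, Igf2bp2, Matr3 and Pabpc1) and 0 higher. At an unadjusted edgeR p below 0.05 Malsu1 alone was added (higher), and DESeq2 and limma-voom also gave 0 higher. For 5 of the 7 the control and OE-labelled CPM ranges were separate, against 45.7% of all tested genes. The median log2 fold change was -0.57 for the 7 members and 0.04 for all tested genes.

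**Figure D1:**
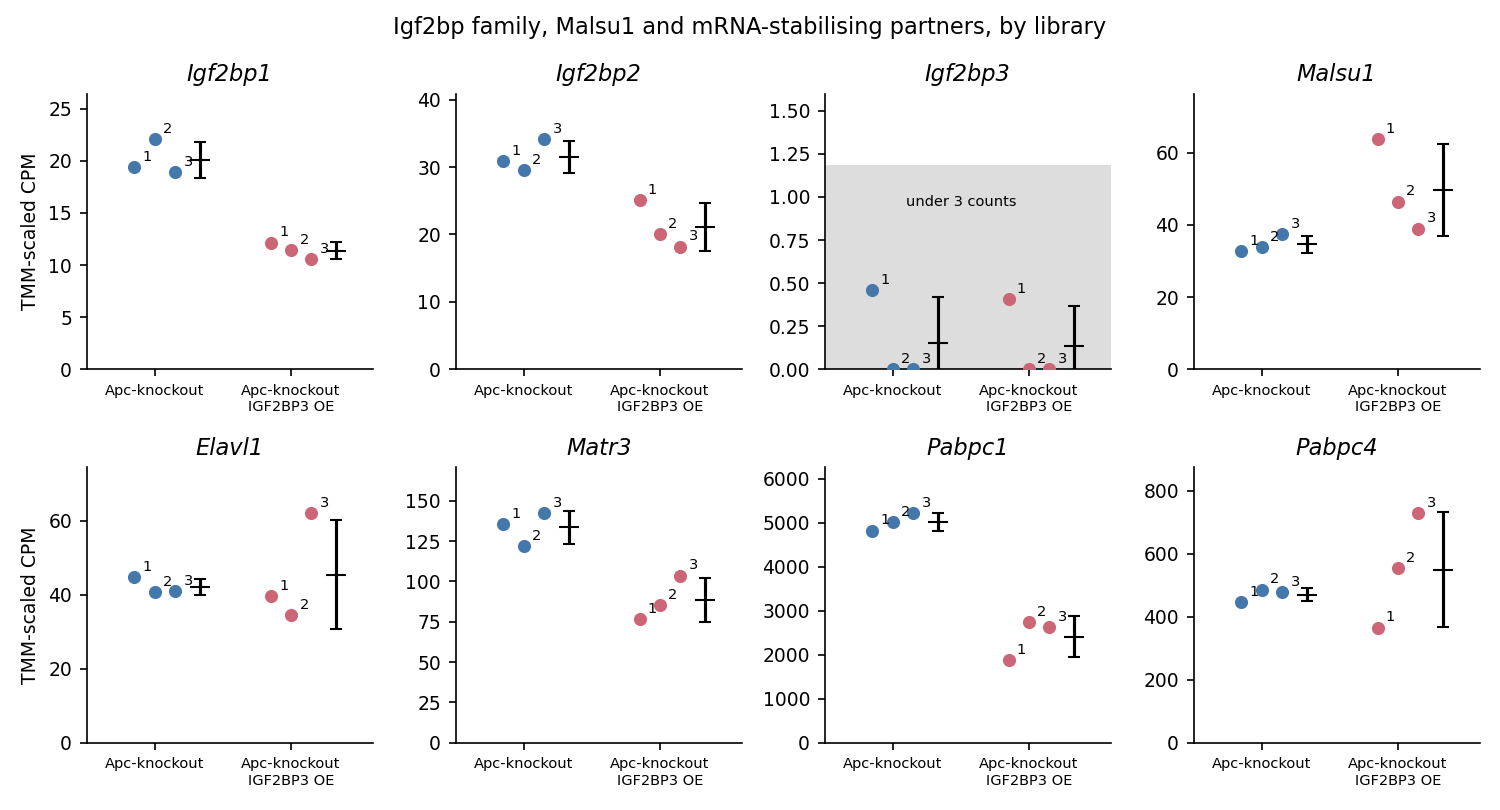
TMM-scaled CPM (vertical axes, each from 0) of the 8 genes in the 3 Apc-knockout libraries (blue) and the 3 libraries labelled IGF2BP3 OE (red); points are libraries with their replicate number, and bars are the mean and SD. Every OE-labelled library lies below every control library for Igf2bp1, Igf2bp2, Matr3 and Pabpc1 and above for Malsu1, and Igf2bp3 stays in the shaded range under 3 counts.

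Igf2bp1, the founding member of the family and a stabiliser of Myc mRNA, lies on the minus strand of chromosome 11 (95957163 to 96005940). It had 42, 47 and 41 counts in controls against 30, 29 and 25 under the OE label. No OE-labelled library reached the lowest control library. In CPM this was 20.1 ± 1.71 and 11.4 ± 0.793 (SD, n = 3), which is -0.82 on the log2 scale with an SE of 0.21 (edgeR adjusted p = 0.0111), or 1.76-fold lower. The spread within each group (8.49% and 6.97% of the mean) was smaller than counting error alone would give (15.2% and 18.9%). Neither antisense Gm29202 nor Mir3063, the other annotated genes at the locus, had a count in any library. The call was lost when control replicate 2 was left out (edgeR adjusted p = 0.0554, the highest in a range from 0.00522 over 20 alternatives).

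Igf2bp2, the family member that adult tissues keep, lies on the minus strand of chromosome 16 (22059009 to 22163299) and overlaps no other annotated gene. It had 67, 63 and 74 counts in controls against 62, 51 and 43 under the OE label. On the CPM scale, where depth is taken into account, the highest OE-labelled library (25.1) lay below the lowest control library (29.6). Igf2bp2 fell from 31.5 ± 2.33 to 21.1 ± 3.59 CPM (SD, n = 3), which is -0.57 on the log2 scale with an SE of 0.18 (edgeR adjusted p = 0.0308). The call is near the threshold: 13 of 20 alternatives passed (adjusted p from 0.00428 to 0.122), and it was lost when any 1 control library, OE-labelled replicate 2 or OE-labelled replicate 3 was left out.

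Whether the paralogues moved by unequal amounts was read from their ratio within each library, which no scaling can change. The log2 ratio of Igf2bp1 to Igf2bp2 counts averaged -0.64 ± 0.214 over controls against -0.87 ± 0.144 under the OE label (SD, n = 3). The difference of -0.23 did not pass an exact permutation test (two-sided p = 0.3, adjusted 0.3 over 2 ratios, with 0.1 as the smallest p that 3 against 3 libraries can give).

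Igf2bp3, the reader named in the OE label, had 1, 0 and 0 counts in controls against 1, 0 and 0 under the OE label. All 6 values lie under the floor of 3 counts (1.18 to 1.41 CPM per library), so no fold change was computed. Pooled over a group, 1 count corresponds to 0.155 CPM in control (exact 95% Poisson interval 0.00391 to 0.861) and 0.136 CPM in OE-labelled libraries (0.00343 to 0.755), intervals that cover counting error only. Transcripts counted as mouse Igf2bp3 were therefore not detectable above the floor in either group, and every direction given here is that of the label.

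The place where a 3′ read of Igf2bp3 would fall is shared. Igf2bp3 runs on the minus strand of chromosome 6 from 49214957 down to 49085223, and Malsu1, an assembly factor of the mitochondrial ribosome, runs on the plus strand from 49073795 to 49086751. Their last exons overlap by 1529 bases. The last 300 bases of the coding transcript of Igf2bp3 lie entirely within an exon of Malsu1, and the last 300 bases of the coding transcript of Malsu1 entirely within an exon of Igf2bp3. None of the other 6 members had another annotated exon over its last 300 bases. The deposited counts show no even split between these genes: Malsu1 had whole numbers from 71 to 157 and Igf2bp3 had 0 or 1. The strand setting of the counting is not given in the sources used here, so reads over the shared stretch cannot be assigned with certainty to either gene. How the counting assigned them was not tested.

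**Figure D2:**
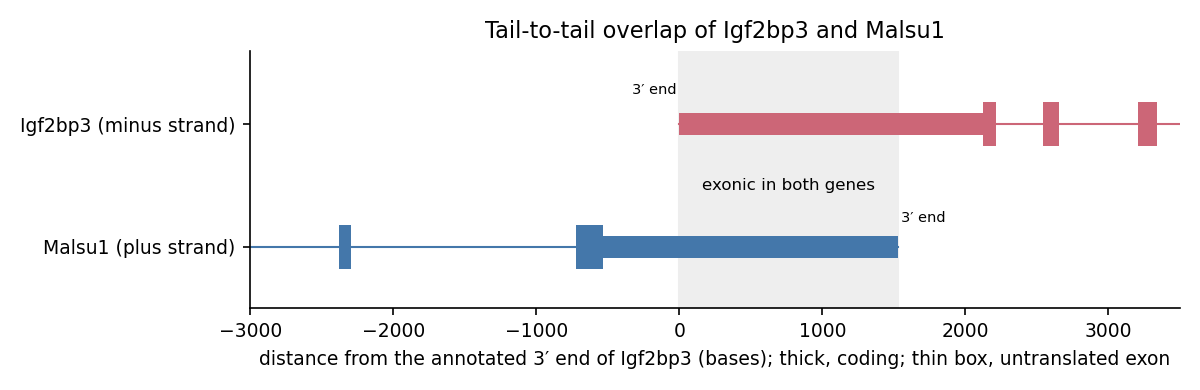
Annotated exons of the coding transcripts of Igf2bp3 (minus strand, red) and Malsu1 (plus strand, blue), with distance in bases from the annotated 3′ end of Igf2bp3 on the horizontal axis; tall boxes are coding, low boxes untranslated, lines introns. The shaded stretch of 1529 bases is exonic in both genes and holds both 3′ ends.

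Malsu1 had 71, 72 and 81 counts in controls against 157, 118 and 92 under the OE label. Every OE-labelled library lay above every control library, with replicate 1 the highest (63.6 CPM) and replicate 3 (38.9 CPM) close to the highest control (37.3 CPM). The means were 34.6 ± 2.41 and 49.6 ± 12.7 CPM (SD, n = 3). The difference, 0.52 on the log2 scale with an SE of 0.19, just missed the threshold (edgeR adjusted p = 0.0503). Its size depended on 1 library: the log2 fold change was 0.25 without OE-labelled replicate 1 (edgeR adjusted p = 0.251) and 0.67 without OE-labelled replicate 3 (adjusted p = 0.00977), the ends of the adjusted p over its 20 alternatives. With a GC offset it was 0.71 (edgeR adjusted p = 0.0191).

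RefSeq (GRCm38.p6) promoter windows were found for 4 of the 8 genes (Igf2bp2, Igf2bp3, Elavl1 and Pabpc4). The 250 bases before the start site of Igf2bp2, which was counted in every library, and of Igf2bp3, which was not, are shown 5′ to 3′ on the minus strand, with the E-box CACGTG, the site letters of MYC and MAX, in capitals.
Igf2bp2, chr16:22163300-22163549: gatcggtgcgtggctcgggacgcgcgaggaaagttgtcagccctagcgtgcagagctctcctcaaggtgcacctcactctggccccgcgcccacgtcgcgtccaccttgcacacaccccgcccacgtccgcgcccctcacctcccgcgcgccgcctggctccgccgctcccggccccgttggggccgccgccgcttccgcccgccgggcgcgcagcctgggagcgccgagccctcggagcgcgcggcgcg
Igf2bp3, chr6:49214955-49215204: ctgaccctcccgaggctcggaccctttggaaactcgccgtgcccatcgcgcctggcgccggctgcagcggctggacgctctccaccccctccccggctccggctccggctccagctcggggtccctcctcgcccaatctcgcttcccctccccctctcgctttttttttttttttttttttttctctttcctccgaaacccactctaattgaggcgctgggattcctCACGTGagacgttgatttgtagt

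The window of Igf2bp2 had 77.2% G and C and 40 CpG dinucleotides, and that of Igf2bp3 had 60.4% and 21. CACGTG, which reads the same on both strands, occurred once in the Igf2bp3 window and in none of the other 3, against 6.02% of 32851 windows of the same length. CTTTGA on either strand, the core letters of TCF and LEF sites, occurred once in the Elavl1 window and in none of the other 3, against 13.8% of all windows.

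Among the partners, Pabpc1 and Matr3 fell, while Elavl1 and Pabpc4 did not pass the test. Pabpc1, the main cytoplasmic poly(A)-binding protein, lies on the minus strand of chromosome 15 (36595661 to 36609668). It had 10464, 10685 and 11339 counts in controls against 4632, 6954 and 6201 under the OE label. The groups lie far apart, with OE-labelled replicate 1 the lowest. Pabpc1 fell from 5020 ± 201 to 2411 ± 466 CPM (SD, n = 3), which is -1.06 on the log2 scale with an SE of 0.13 (edgeR adjusted p = 0.000177), or 2.08-fold lower. It passed in all 20 alternatives, with log2 fold changes from -1.19 to -0.89. Only 2 other annotated genes match its last 600 bases (at least 95% identity over at least 100 bases), and together they held 3 to 21 counts per library.

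Pabpc4, its inducible paralogue, lies on the plus strand of chromosome 4 (123262351 to 123298925). It had 970, 1036 and 1036 counts in controls against 903, 1409 and 1725 under the OE label. The OE-labelled libraries spread to either side of the controls, from 366 CPM in replicate 1 to 729 CPM in replicate 3. The means were 470 ± 20.5 and 550 ± 182 CPM (SD, n = 3), and the log2 fold change was 0.23 with an SE of 0.18 (edgeR adjusted p = 0.382). Single libraries set this value: it was -0.03 without OE-labelled replicate 3 (edgeR adjusted p = 0.899) and 0.39 without OE-labelled replicate 1 (adjusted p = 0.00564, in a range up to 0.962). The 5 annotated genes with a near-identical 3′ end held 3 to 7 counts per library in all.

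The log2 ratio of Pabpc1 to Pabpc4 counts was 3.43, 3.37 and 3.45 in control and 2.36, 2.3 and 1.85 in OE-labelled libraries. The ratio was lower in 3 of 3 OE-labelled libraries, with a difference of -1.25, or 2.37-fold. The exact permutation test gave a two-sided p of 0.1, the smallest that 3 against 3 libraries can give (adjusted 0.2 over 2 ratios).

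Matr3, a nuclear matrix protein that binds RNA, lies on the plus strand of chromosome 18 (35562138 to 35593835). It had 294.5, 260 and 309 counts in controls against 189.5, 216.5 and 245 under the OE label. Every OE-labelled library lay below every control library in CPM. Matr3 fell from 133 ± 10.4 to 88.5 ± 13.7 CPM (SD, n = 3), which is -0.59 on the log2 scale with an SE of 0.13 (edgeR adjusted p = 0.00572). Its transcript has the lowest GC content of the 8 (38.6%), and with a GC offset the change was -0.30 and did not pass (edgeR adjusted p = 0.0875, in a range from 0.000219 to 0.0894). A second gene on the same strand, entered in the table as Snhg4 (ENSMUSG00000117694), overlaps Matr3 and had 105, 99 and 94.5 counts in controls against 67.5, 45 and 42 under the OE label. Its change was -1.13 in log2 units, with an SE of 0.19 (edgeR adjusted p = 0.0011), and fractional counts in both genes leave their separation uncertain.

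Elavl1, which binds AU-rich and U-rich 3′ untranslated regions, lies on the minus strand of chromosome 8 (4285382 to 4325413). It had 97, 87 and 89 counts in controls against 98, 88 and 147 under the OE label. Only OE-labelled replicate 3 (62.2 CPM) lay above the control range of 40.8 to 44.7 CPM, and the other two lay below it. The means were 42.2 ± 2.19 and 45.5 ± 14.7 CPM (SD, n = 3), and the log2 fold change was 0.11 with an SE of 0.2 (edgeR adjusted p = 0.729). It was -0.18 without replicate 3 (adjusted p = 0.397, in a range from 0.262 to 0.895). Elavl1 overlaps the 5′ end of Ccl25 on the opposite strand, which had 6 to 17 counts per library.

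**Figure D3:**
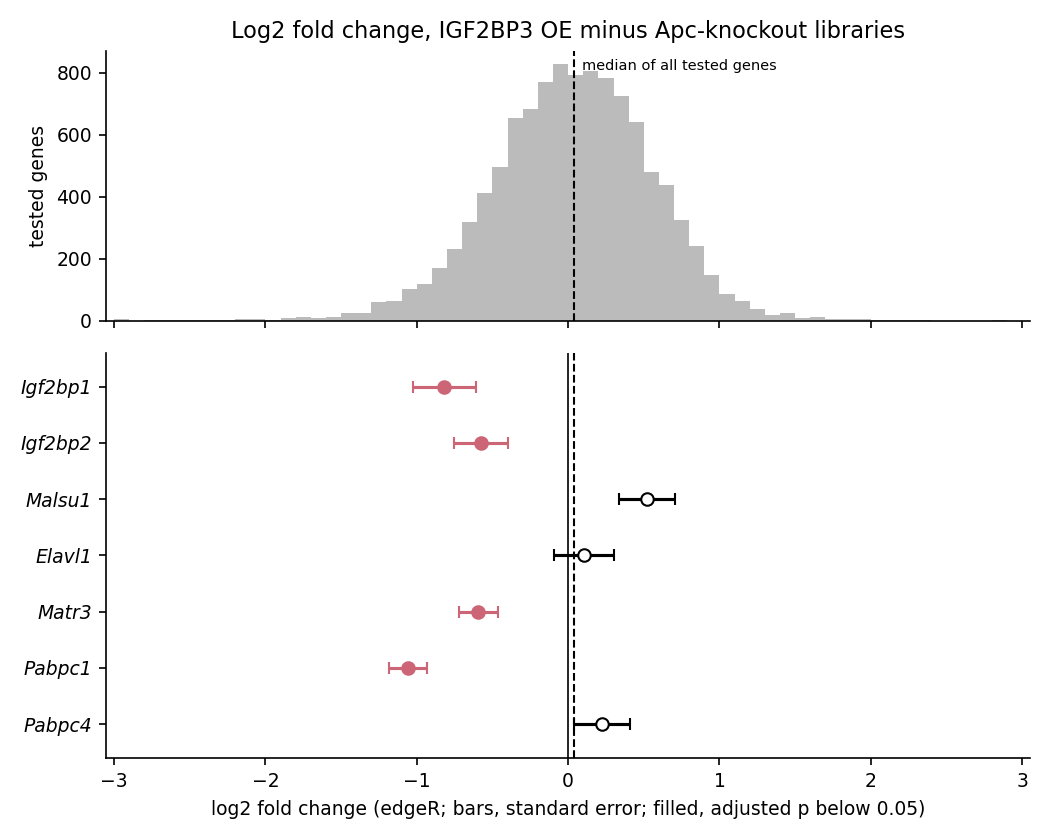
Top, number of tested genes by log2 fold change (OE-labelled minus control, in steps of 0.1, values beyond 3 drawn at the edge); bottom, log2 fold change and standard error of the 7 tested members, filled where the edgeR adjusted p is below 0.05. Pabpc1 (-1.06) and Igf2bp1 (-0.82) lie farthest from the dashed median of all tested genes (0.04).

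**Figure D4:**
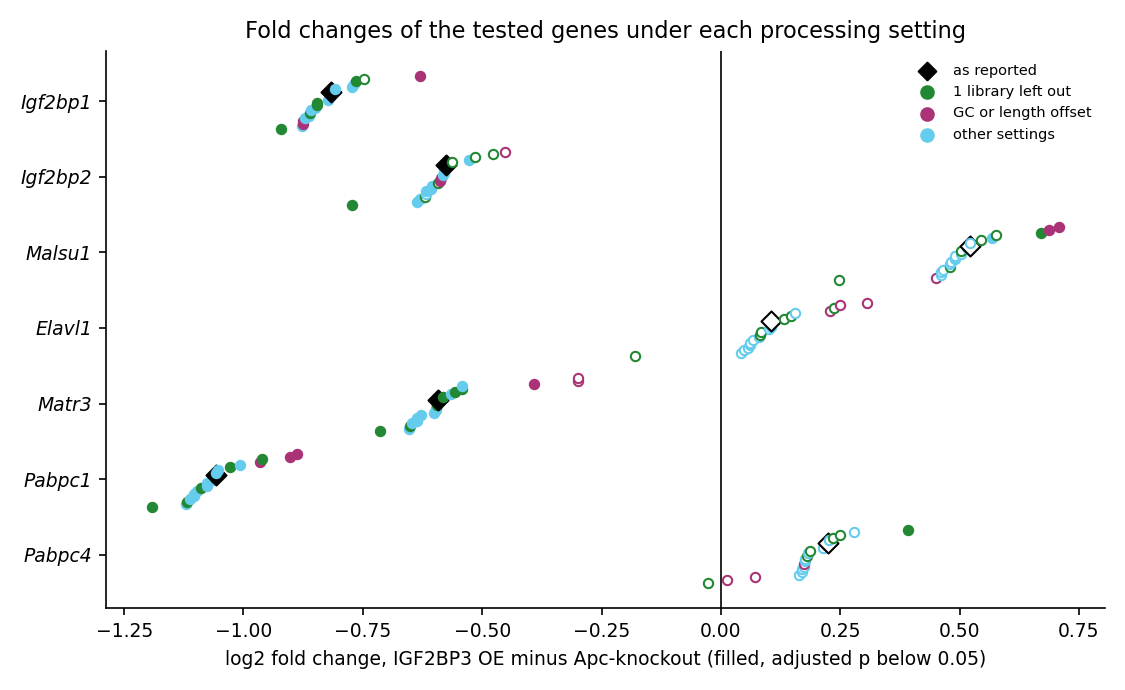
Log2 fold change (horizontal axis) of the 7 tested members as reported (black diamonds) and under 20 other processing settings (circles), filled where the adjusted p is below 0.05. Igf2bp1, Igf2bp2, Matr3 and Pabpc1 stay below 0 and Malsu1 above 0 in each setting shown, whereas Elavl1 and Pabpc4 each cross 0 when OE-labelled replicate 3 is left out.

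Around these genes, 6 lists of partners and targets were counted in the same fit, each against 29.2% called among all tested genes and a median log2 fold change of 0.04. List counts with a GC offset stand against 2574 of 10679 genes called in that fit, 1507 of them higher. Those with library totals stand against 3189 of 10687, 2035 of them higher. The coding-region stabilising complex, in which IGF2BP1 protects Myc mRNA, had 3 of 5 genes lower and 0 higher (median -0.36). Dhx9, an RNA helicase of the complex, had 223, 212 and 220 counts in controls against 107, 125 and 159 under the OE label. It fell by 0.93 in log2 units, with an SE of 0.15 (edgeR adjusted p = 0.00104). Syncrip fell by 0.36 (edgeR adjusted p = 0.0429, passing in 11 of 20 alternatives), and Igf2bp1 itself was the third. Hnrnpu (-0.27) and Ybx1 (-0.20) did not pass (adjusted p = 0.0579 and 0.111). At an unadjusted p below 0.05, no gene of this list was higher, and none was called higher with either other scaling. DESeq2 size factors (3077 of 10687 genes called) gave 4 of the 5 lower, and library totals gave 2. With a GC offset 3 were lower and 0 higher.

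Of 13 tested genes for poly(A)-binding proteins and their regulators, 1 was higher and 2 were lower (median -0.10). The members Pabpc1 and Pabpc4, given above, are counted among the 13, and Pabpc1 is 1 of the 2 lower. Pabpc1l, the oocyte form of the protein, rose from 4, 6 and 10 counts to 25, 23 and 11 counts (log2 fold change 1.35, SE 0.42, edgeR adjusted p = 0.0279), a call kept in 12 of 19 alternatives. Paip2b, an inhibitor of PABPC1, changed by -0.79 (SE 0.27, edgeR adjusted p = 0.0453), a call kept in 9 of 20. Pabpn1, the nuclear poly(A)-binding protein, had a log2 fold change of -0.03 (edgeR adjusted p = 0.938), and Larp1, which guards mRNAs of the translation machinery such as Pabpc1, had -0.36 (adjusted p = 0.133). With a GC offset 0 of the 13 were higher and 1, Pabpc1, was lower.

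Of 14 tested ELAV-family and AU-rich element binding genes, 4 were lower and 0 higher (median -0.24). Zfp36l2, which recruits the deadenylation machinery, had 71, 76 and 75 counts in controls against 39, 25 and 35 under the OE label. It fell by 1.35 in log2 units, with an SE of 0.20 (edgeR adjusted p = 0.00061). Its paralogue Zfp36l1 fell by 0.58 (SE 0.11, edgeR adjusted p = 0.00215), and both passed in all 20 alternatives. Hnrnpd (AUF1) fell by 0.55 and Fubp1 by 0.60 on the log2 scale (edgeR adjusted p = 0.00518 and 0.00332). With a GC offset 2 of the 14 were called lower.

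Of 27 other mRNA-stabilising and granule proteins, 3 were higher and 9 lower (median -0.25). The rises were those of the poly(C)-binding proteins and of Upf1. Pcbp1 had 592, 554 and 577 counts in controls against 1055, 1023 and 1024 under the OE label, which is 0.66 on the log2 scale with an SE of 0.10 (edgeR adjusted p = 0.000517). Pcbp2 rose by 0.83 (SE 0.13, edgeR adjusted p = 0.00083), and both passed in all 20 alternatives, whereas Upf1, the helicase of nonsense-mediated decay, passed in 7 (log2 fold change 0.39, edgeR adjusted p = 0.0447). The decreases with the smallest p were those of Caprin1, Hnrnpl, Matr3 and Fxr1 (edgeR adjusted p = 0.00381 to 0.00648). On the log2 scale Caprin1, a stress granule protein, was at -0.50, Hnrnpl and Fxr1 at -0.53 and Matr3 at -0.59. The member Matr3, given above, is counted among the 9 lower. With a GC offset 2 of the 27 were higher and 3 lower.

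**Figure D5:**
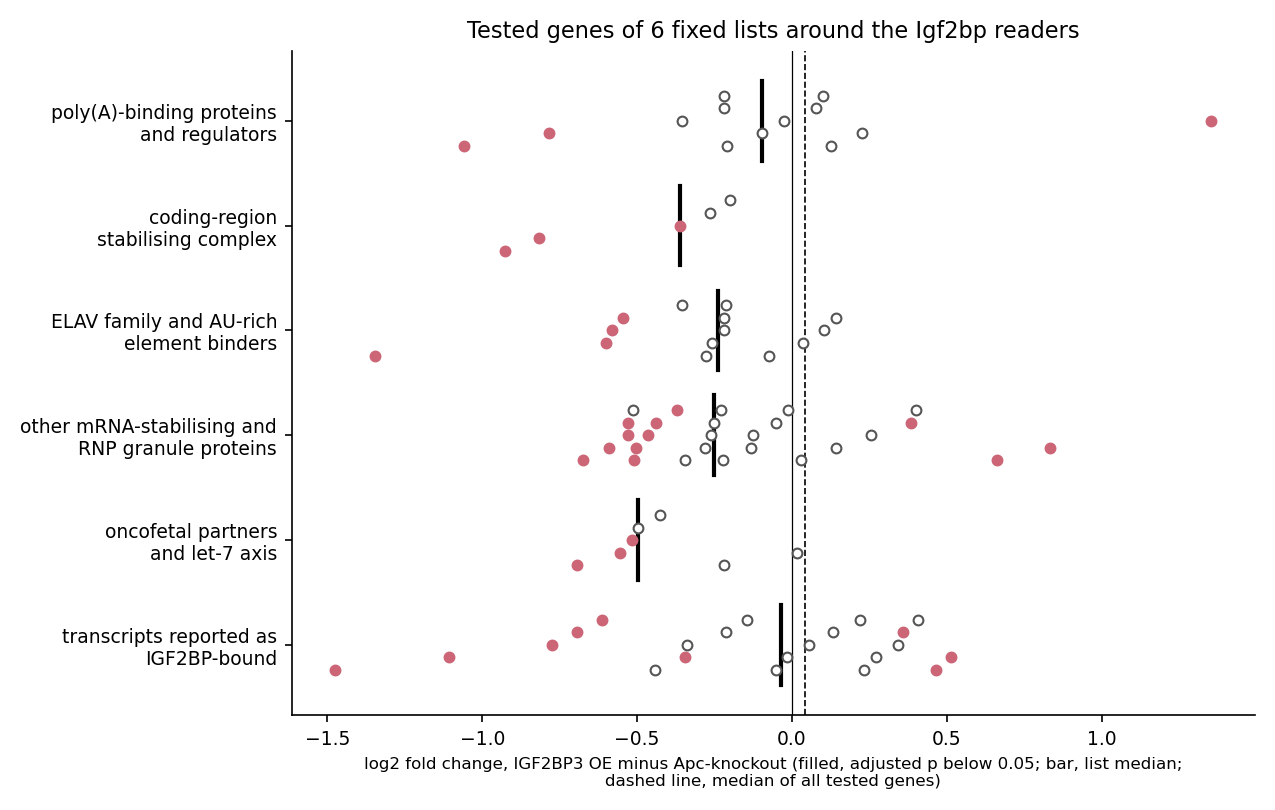
Log2 fold change (OE-labelled minus control, horizontal axis) of every tested gene of 6 lists, filled where the edgeR adjusted p is below 0.05; thick bars are list medians and the dashed line is the median of all tested genes (0.04). The decreases of Dhx9 (-0.93) and Zfp36l2 (-1.35) and the rises of Pcbp1 (0.66) and Pcbp2 (0.83) stand at the edges of their lists.

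The list of oncofetal partners and of let-7 axis genes was often too low to test, with 7 tested among the 14 found by symbol. Most of the tested genes, Tut4 and Tut7 among them, belong to the let-7 axis and not to the oncofetal partners. Lin28a and Lin28b, which block let-7 maturation, had 0 counts in every library, and Igf2 and H19 had at most 2. Hmga2, a let-7 target and a bound mRNA of IGF2BP proteins, had 77, 82 and 66 counts in controls against 59, 40 and 59 under the OE label. It fell by 0.69 in log2 units, with an SE of 0.20 (edgeR adjusted p = 0.0207; 15 of 20 alternatives). Tut4 and Tut7, which add uridines to let-7 precursors, fell by 0.56 and 0.51 (edgeR adjusted p = 0.00356 and 0.0108). In all 3 of 7 were lower and 0 higher, with a median of -0.50. With a GC offset 1 of 7 was called lower.

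Of 22 tested transcripts reported as bound or stabilised by IGF2BP proteins, 3 were higher and 6 lower, with a median of -0.03. With library totals 4 were higher and 4 lower and the median was 0.02, and with a GC offset 4 were higher and 4 lower. Vegfa, the angiogenic growth factor, fell by 0.78 in log2 units, with an SE of 0.10 (edgeR adjusted p = 0.000324), with 733, 667 and 737 counts in controls against 443, 493 and 486 under the OE label. Abcb1b, a drug efflux transporter with 3 to 16 counts per library, fell by 1.47 (edgeR adjusted p = 0.0201). Hmga2, given above, and Myc were also among the decreases. Myc had 46, 67 and 54 counts in controls against 8, 35 and 45 under the OE label, with OE-labelled replicate 1 the lowest. Its log2 fold change was -1.11 with an SE of 0.39 (edgeR adjusted p = 0.0472). The call is near the threshold and was kept in 14 of 20 alternatives (adjusted p up to 0.21). Ctnnb1, which encodes beta-catenin, rose from 3263, 3256 and 3374 counts to 5228, 5700 and 5176 counts, which is 0.51 on the log2 scale with an SE of 0.09 (edgeR adjusted p = 0.001). Hk2 rose by 0.47 and Actb by 0.36 (edgeR adjusted p = 0.00462 and 0.0234). Actb passed in 10 of 20 alternatives.

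Genes with the most similar profile were sought among 7483 protein-coding genes of average log2 CPM of at least 4, by the root-mean-square distance of centred log2 CPM over the 6 libraries. Nearest to Igf2bp1 were Gnl3l (distance 0.06), Cntrl (0.07) and Msi2 (0.07). Msi2, an RNA-binding protein of stem and progenitor cells, had 490, 511 and 492 counts in controls against 384, 347 and 286 under the OE label. Nearest to Igf2bp2 were Magi3 (0.04), Rabep1 (0.04) and Rrbp1 (0.06). These distances were sought in the same 6 libraries and describe them only.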

How the data were processed

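The authors deposited one table of unnormalized estimated counts per gene for the 6 libraries, per the file headers. Libraries came from column-purified total RNA with a QuantSeq 3′ forward kit, per the labels' protocols. STAR, HTSeq and the builds mm10 and GRCm38 are named in the submitters' processing notes, while the annotation, the strand setting and any use of molecular identifiers are not given in the sources used here. Of the values above 0, 3.1% were fractional, mostly ending in 0.5, and all were rounded to whole numbers for tests, although whole counts had been planned for. All value columns were used and matched to samples by library name.

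Genes were kept by filterByExpr, scaled by TMM and compared by quasi-likelihood F-test (edgeR 4.0.16, R 4.3.3; no covariates, all 6 libraries). Benjamini-Hochberg adjustment ran over all 10687 tested genes. The standard error is the fold change divided by the square root of the F statistic. DESeq2 1.42.0 and limma 3.58.1 (voom) were alternatives, as were other scalings and filters, equal depth, gene subsets, loess offsets (span 0.5) for GC content and length, rounding down, a replicate block and each library left out. Tested on simulated data, the fit returned the fold changes put in and called most genes changed 2-fold but few with smaller changes. With a simulated GC trend most of its calls were of unchanged genes, and few were with the GC offset. The simulated GC trend was not fitted to these data, fewer genes were changed than were called here, and both groups were given the same spread. The simulated shares therefore do not carry over to the calls in these libraries. Positions, overlaps and transcripts are from GENCODE M21 (GRCm38), which held 99.5% of the gene identifiers, and copies of 3′ ends were sought with blastn 2.17.0. Ratios within libraries used counts plus 0.5. The floor is 3 counts. The named genes are all members, at most 4 genes per list and direction with the smallest p among those called, and the 3 nearest profiles of Igf2bp1 and Igf2bp2; further names were picked with their values in view. The GC offset and the other settings for list genes were added after seeing the data. The members and lists were chosen with earlier results of these data known, and list counts are descriptions without a set test. Some genes of the lists are counted but not reported by name here.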

Additional observations from a re-analysis of the deposited data

How the results depend on the processing

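Over the 20 alternatives, Igf2bp1, Igf2bp2, Matr3 and Pabpc1 kept a negative and Malsu1 a positive log2 fold change. Malsu1 passed at 0.57 with library totals, 0.49 without a count filter, 0.71 with the GC offset and 0.69 with the replicate block and GC offset, so that 1 member was called higher in each of these 4 (0 as reported). Igf2bp2 no longer passed at -0.62 with the DESeq2 test and -0.45 with the exonic length offset, nor Matr3 at -0.30 under the GC offset, also when blocked. The cause of these changes was not tested. At an adjusted p below 0.01, 1578 of all genes and 2 members, both lower, were called.

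Leaving out 1 library at a time gave 1748 to 3532 genes called over all, 2 to 5 members called, 0 to 1 of them higher and 2 to 4 lower. The log2 fold changes then ran from -0.92 to -0.75 for Igf2bp1, -0.77 to -0.48 for Igf2bp2, 0.25 to 0.67 for Malsu1, -0.18 to 0.24 for Elavl1 and -0.03 to 0.39 for Pabpc4. Without control replicate 1, 2 or 3, 1893, 1837 and 1748 genes passed, and without control replicate 2 the members called were Matr3 and Pabpc1. Pabpc4 was at -0.027 without OE-labelled replicate 3.

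The replicate numbers share no stated culture or day. Deviations from the group means correlated at 0.10, 0.02 and 0.07 for equal numbers and at -0.03 on average for unequal ones. Such deviations cancel out within each group, so the mean for unequal numbers is largely set by the values for equal ones. That mean is therefore no separate reading of pairing. Of the control libraries, 2 of 3 correlated best with their own number. With the replicate block 3112 genes were called (3118 without), 2958 of them shared, and 4 members, all lower, with log2 fold changes of -0.82 for Igf2bp1, -0.58 for Igf2bp2, -0.60 for Matr3 and -1.08 for Pabpc1.

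The scaling moved the median of all tested genes from 0.04 to -0.003 (DESeq2 size factors) and 0.09 (library totals), and the share of calls that were higher from 56.6% to 49.9% and 63.8%. The number called in each list, both directions summed, stayed within 1.5 times its value under both scalings, but the poly(A)-binding genes called lower went from 2 to 1 with library totals. Counting error limits Igf2bp1, at 25 to 47 counts, and Igf2bp3 cannot be compared at this depth.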

Other observations

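Within 250 kb of Igf2bp3, 27 annotated genes were in the table, of which 18 had 0 counts in every library and 4 were tested, Malsu1 among them. Tra2a, a splicing regulator and the nearest counted gene beyond the Igf2bp3 promoter (29 kb), had 454, 440 and 481 counts in controls against 368, 343 and 405 under the OE label. It fell by 0.49 on the log2 scale (edgeR adjusted p = 0.00777). Tmem176a and Tmem176b, membrane protein genes 238 kb and 244 kb away, rose by 0.59 and 0.70 on the log2 scale (edgeR adjusted p = 0.00284 and 0.000776). Gpnmb, the nearest protein-coding gene beyond Malsu1 (14.3 kb from Igf2bp3), had 0 counts throughout.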
